A study of Mus musculus with 5 samples.

Results

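The clustered protocadherin genes were described through the 112 peaks, of 156288 in the whole series, that touch chromosome 18 from 37050000 to 38030000 on mm9. This interval of 980 kb holds the Pcdha, Pcdhb and Pcdhg clusters in that order, and a peak was a member when it overlapped the interval by at least 1 bp. H3K4me3 gave 64 of these peaks, H3K4me1 gave 25, H3K27ac gave 21 and H3K27me3 gave 2. The rest of chromosome 18, with 4445 peaks, served as the comparison.

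The peaks come from chromatin immunoprecipitation and sequencing of EpiSC9, a single line of mouse epiblast stem cells, which represent the pluripotent state of the epiblast after implantation. All groups shared the same culture, with FGF2 at 10 ng/ml on a feeder layer of irradiated mouse embryonic fibroblasts, and no genetic change or treatment is named in the labels. The 4 groups differ in the antibody alone (H3K4me1, H3K4me3, H3K27ac or H3K27me3), with 5000000 crosslinked cells per immunoprecipitation and 1 library per mark, while an input library was not analysed here. There is no replicate, so no difference below has a replicate check, and the ranges given with shares and ratios (95%, Wilson) reflect the number of peaks counted, not variation between cultures. These ranges treat peaks as independent, which neighbouring peaks of an array are not, so they may be too narrow. Read totals are unknown, and the identity of the cells was not checked against marker genes, because no annotation of mm9 was used.

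Clustered protocadherins are cadherin-like adhesion proteins of the cell surface, best known from neurons, where each cell uses a small set of them as an identity code. In the Pcdha and Pcdhg clusters every variable exon has its own promoter and is spliced to shared constant exons at the end of the cluster, whereas Pcdhb genes are single-exon genes in a row. Of the marks, H3K4me3 is typical of promoters and H3K4me1 of enhancers and promoter flanks. H3K27ac accompanies activity at either, while Polycomb complexes deposit H3K27me3 at genes kept silent. RefSeq (GRCm38.p6) lists 58 clustered protocadherin genes, namely 12 from Pcdha1 to Pcdha12, 2 Pcdhac, 22 Pcdhb, 19 Pcdhga and Pcdhgb (1 of them, Pcdhgb8, a pseudogene) and 3 Pcdhgc genes. In that order Zmat2 precedes Pcdha1, Slc25a2 and Taf7 stand between Pcdhb22 and Pcdhga1, and Diaph1 follows Pcdhgc5. Since that build is not the one of the peaks, names served for number and order, and single peaks are given by position without a gene.

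H3K4me3 peaks were dense in the protocadherin interval, mostly narrow, and mostly without any other mark. There were 65.3 H3K4me3 peaks per Mb in the interval and 8.70 per Mb on the rest of the chromosome, a ratio of 7.50 (95% interval 5.82 to 9.68). The other marks did not share this density. H3K4me1 stood at 25.5 peaks per Mb against 26.8 (ratio 0.952, 0.644 to 1.41), and H3K27me3 at 2.04 against 3.90 (ratio 0.524, 0.143 to 1.92). H3K27ac reached 21.4 per Mb against 11.8 (ratio 1.81, 1.18 to 2.78), but its bounds included 1 once peaks within 1 kb were joined (1.52, 0.885 to 2.61). Most H3K27ac peaks lay at the far end of the interval, and without the terminal 98 kb the ratio was 0.479 (0.204 to 1.12, 5 peaks), not distinguishable from the rest of the chromosome. The H3K4me3 ratio was 3.95 for covered length in place of peak number, and 2.32 when H3K4me3 peaks below their list's median score were left out, which kept 10 of the 64. The median width of H3K4me3 peaks was 474 bp (interquartile range 328 to 688) in the interval and 961 bp (440 to 1724) on the rest of the chromosome. The 10 stronger peaks of the interval had a median of 1262 bp, which is not comparable with the 961 bp of unfiltered peaks. The width of equally filtered peaks on the rest of the chromosome was not computed.

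The same contrast in peak number appeared against 87 windows of equal length laid end to end over the rest of chromosome 18. Those windows held between 0 and 39 H3K4me3 peaks, with a median of 6, so that none reached the 64 of the protocadherin interval. The 4 richest were its direct neighbours, 3 before it and 1 after, with 32, 34, 39 and 33 H3K4me3 peaks in order of position, so the difference from the adjoining chromosome was smaller than the ratio of 7.50. These 4 windows held more of the other active marks than the interval, with 79 to 105 H3K4me1 peaks against 25 and 28 to 64 H3K27ac peaks against 21. Between 0 and 2 of their H3K4me3 peaks met no other mark, against 43. For H3K4me1 the interval's 25 peaks fell near the middle, with 41 windows above it, and for H3K27ac 13 windows held more than 21. By covered length of H3K4me3, 1 window exceeded the interval's 40.9 kb. The 4 direct neighbours held 40.8, 39.8, 50.3 and 35.6 kb in order of position, so by this measure the interval did not stand out from them. Among the 35 windows with at least 10 H3K4me3 peaks, the number of H3K4me3 peaks per H3K4me1 peak was 0.200 to 0.933, against 2.56 in the interval.

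**Figure D1:**
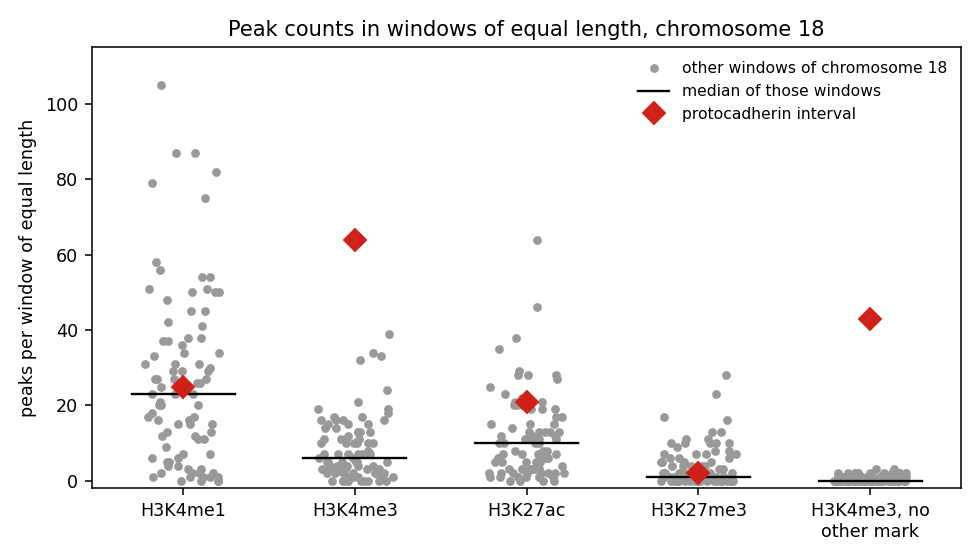
Number of peaks per 980 kb window on chromosome 18 for each mark, and for H3K4me3 peaks that meet no other mark; grey points are the 87 other windows, bars their median, and diamonds the protocadherin interval. The interval lies above every other window for H3K4me3 (64 peaks) and for H3K4me3 with no other mark (43 peaks), and among the other windows for H3K4me1, H3K27ac and H3K27me3.

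Most H3K4me3 peaks of the interval stood alone. No peak of another mark touched 43 of the 64 (67.2%, 55.0 to 77.4), against 8.34% of 755 peaks on the rest of chromosome 18. H3K4me1 touched 19 of 64 (29.7%, 19.9 to 41.8), where the rest of the chromosome had 85.6%. H3K27ac touched 9 (14.1%, 7.58 to 24.6), against 51.7%. H3K27me3, which with H3K4me3 would give the bivalent state of silenced developmental genes, touched 1 (1.56%, 0.276 to 8.33), against 16.3%. None of these 4 intervals, which take neighbouring peaks as independent, reached the value of the rest of the chromosome. Among the 10 H3K4me3 peaks at or above their list's median score the share without another mark was 30%, with each list limited in the same way, against 10.7% on the rest of the chromosome. At 30% the Wilson interval ran from 10.8 to 60.3. Under the same limit the shares with H3K4me1 (50%, 23.7 to 76.3), H3K27ac (40%, 16.8 to 68.7) and H3K27me3 (0%, 0 to 27.8) were not distinguishable from those of the rest of the chromosome, which were 65.2%, 53.4% and 17.8%.

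The solitary H3K4me3 peaks were also mostly far from H3K4me1 and H3K27ac, though the closest lay 0.0290 kb and 2.64 kb from them. These distances are not separate observations, since the 17 peaks of the first row lay in the initial 199 kb, which held no H3K4me1. The median distance of all solitary peaks of the interval to the nearest H3K4me1 peak was 56.1 kb (interquartile range 33.3 to 94.0). The 63 such peaks on the rest of chromosome 18 had a median of 9.03 kb (2.28 to 45.5). To the nearest H3K27ac peak the medians were 77.2 kb and 21.5 kb. For H3K27me3 the distances largely overlapped, at 198 kb (149 to 418) and 144 kb (60.2 to 443). Their median score was 186, against 73.3 for solitary H3K4me3 peaks elsewhere on the chromosome, and this difference lay in part of the interval. The 28 in the first 4 rows described below had a median of 313 (interquartile range 139 to 477), whereas the 15 in the fifth row had a median of 70.1, close to the rest. The score of a peak is the authors' and was compared within a list alone.

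A cutoff of 50 kb divided the H3K4me3 peaks into 5 rows, separated wherever neighbouring peaks lay further apart than that. The empty stretches between the rows measured 68.8, 52.1, 55.9 and 123 kb. Within the third row a distance of 46.2 kb was kept, so the number of rows depends on the cutoff, and no other cutoff was tried. Within the interval, neighbouring H3K4me3 peaks lay a median of 6.75 kb apart (interquartile range 3.58 to 12.4), and 38 of 63 distances (60.3%) fell between 2 and 20 kb. On the rest of the chromosome the median was 30.0 kb, and 17.7% of 753 distances fell in that range. Peaks within 1 kb of each other were counted as 1 site, which gave 53 sites, 43 of a single peak, 9 of 2 peaks and 1 of 3.

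**Figure D2:**
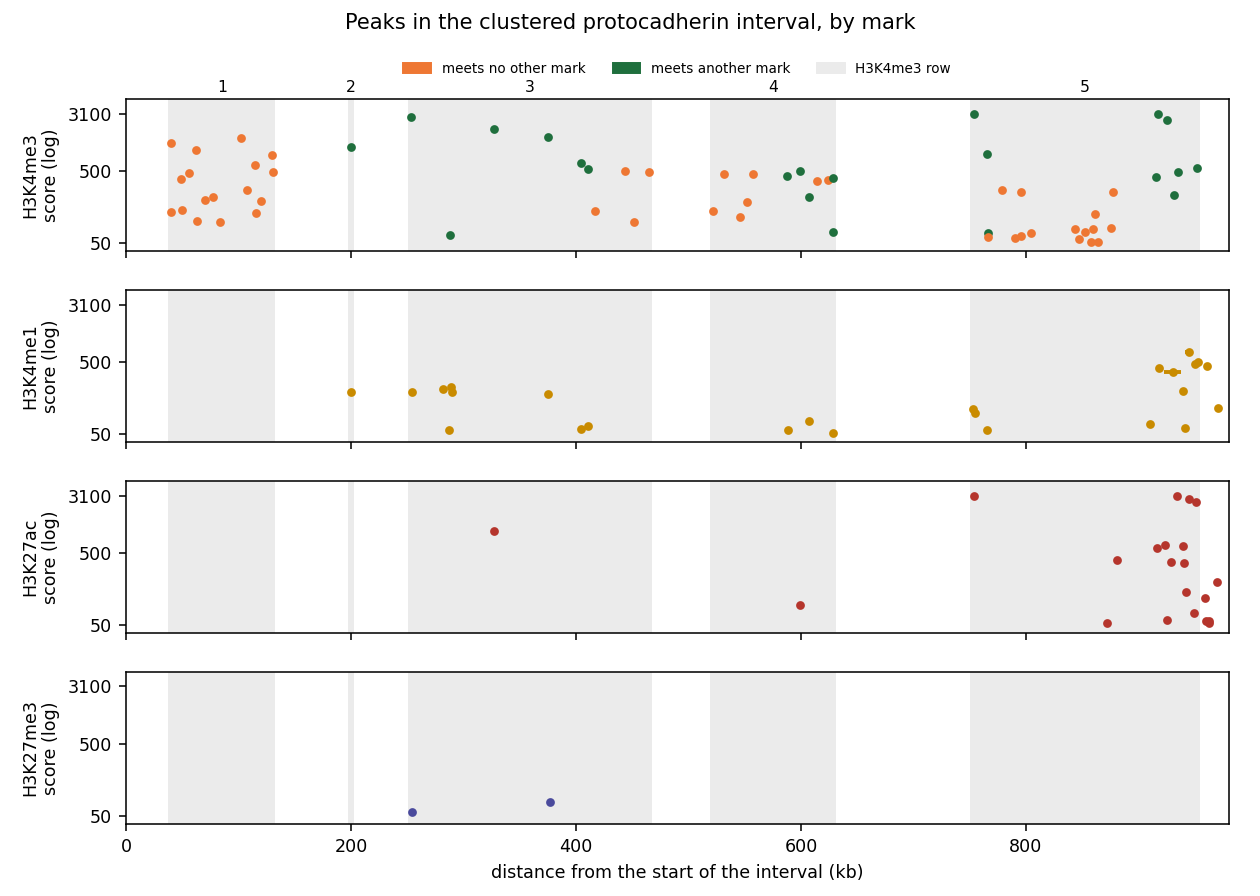
Position (kb from the start of the protocadherin interval) and score (log axis) of every peak, with 1 panel per mark; points mark the middle of a peak, short horizontal lines its width to scale, and grey bands the 5 rows of H3K4me3 peaks. H3K4me3 peaks run through all rows, the first row has no peak of another mark, and H3K4me1 and H3K27ac gather at the right end.

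The first row, at the Pcdha end of the interval, was the most regular. From 37089599 to 37180864 (91.3 kb), 17 H3K4me3 peaks formed 12 sites, and no peak of the other 3 marks lay in that span. RefSeq lists 12 genes from Pcdha1 to Pcdha12 at the start of the order, and the equal numbers do not assign a site to a gene. The highest score at each site, in order, was 1226, 381, 470, 971, 198, 218, 97.05, 1398, 271, 599, 187 and 821. Strong and weak sites were mixed along the row. Distances between neighbouring sites were 4.61 to 9.0 kb, apart from 18.1 kb after the seventh. Of the 12 sites, 5 consisted of 2 peaks within 1 kb of each other, for example 37089599 to 37090116 (score 1226) with 37090238 to 37090479 (score 134).

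Taken singly, peaks of the first row were narrow for their scores. Their median width was 379 bp, with a range of 242 to 671. Among H3K4me3 peaks of 300 to 600 bp, the 13 in the first row had a median score of 381 (interquartile range 198 to 821), and the 17 in the other rows a median of 139 (80.7 to 395). The 202 peaks of that width on the rest of the chromosome had a median of 113 (81.2 to 183). Of these, the 27 that met no other mark had a median of 85.5 (70.4 to 117). A score of 800 or more at this width was reached by 4 of the 13, 0 of the 17, 3 of the 202 and 0 of the 27. Those of the first row with scores of 1226, 971 and 821 each belonged to a site of 2 peaks. Their joined sites spanned 881, 933 and 1229 bp, beyond this range of width. Peaks on the rest of the chromosome were not joined for this comparison. Distances within 1 kb made up 17.5% of 63 in the interval and 24.7% of 753 on the rest of the chromosome. How much of the narrowness comes from the splitting of sites into peaks was not tested. The width range was chosen after the values were seen.

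**Figure D3:**
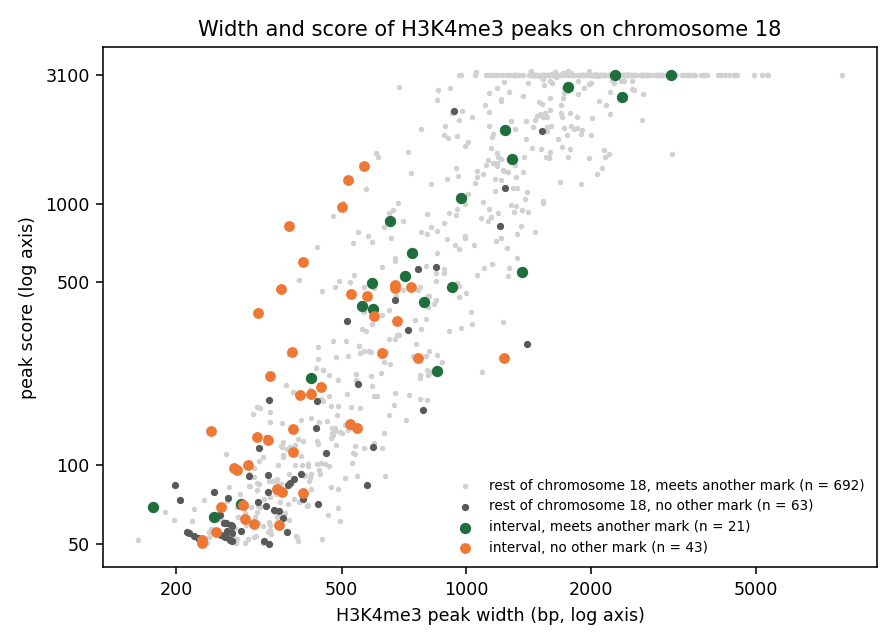
Width (bp) and score of the H3K4me3 peaks on chromosome 18, both on log axes; each point is a peak, large points lie in the protocadherin interval and colours tell whether a peak meets another mark. The 43 solitary peaks of the interval are mostly narrow, and several of them lie above the other peaks of like width, while many peaks of the rest of the chromosome stop at a score of 3100.

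A single peak made up the second row. It lay at 37249616 to 37250584, was 969 bp wide with a score of 1051, and overlapped an H3K4me1 peak of 1780 bp (score 187). This H3K4me1 peak was the first in the interval, so that the initial 199 kb held none.

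The third row held 10 H3K4me3 peaks from 37302732 to 37515388, at a median distance of 25.9 kb. Its first peak, 37302732 to 37304488 (1757 bp, score 2799), was the strongest before the fifth row. It overlapped H3K4me1 and 1 of the 2 H3K27me3 peaks in the interval, a peak of 363 bp with a score of 56.0, close to the lowest score in the list, 50. The other H3K27me3 peak, 37426346 to 37426778 (433 bp, score 78.5), touched no other mark, and from its end on the remaining 603 kb held no H3K27me3 peak. At 37376797 to 37378033 an H3K4me3 peak (1237 bp, score 1921) carried H3K27ac (907 bp, score 993) without H3K4me1. This was the first H3K27ac peak of the interval, 327 kb from its start.

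Between those 2 strong H3K4me3 peaks lay a group of 4 H3K4me1 peaks from 37331451 to 37340573, singled out after the data were seen. Their scores were 210, 57.0, 224 and 192, against a median of 128 for the H3K4me1 list. No H3K27ac or H3K27me3 peak touched them, and the H3K4me3 peak that met the third of them was weak, at 247 bp and a score of 63.4. Over the whole interval, 4 of 25 H3K4me1 peaks (16%, 6.4 to 34.7) met no other mark, against 58.2% on the rest of the chromosome. H3K4me3 touched 15 of the 25 (60%, 40.7 to 76.6), against 27.8%, and H3K27me3 touched 1 (4%), against 5.55%. In the protocadherin interval H3K4me1 therefore lay mostly on H3K4me3 or, as given below, on H3K27ac.

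In the fourth row, 12 H3K4me3 peaks from 37571262 to 37678987 formed 11 sites with a median spacing of 7.85 kb. Peak scores in this row ran from 70.7 to 497, and site maxima from 113 to 497. H3K4me1 met 4 of the 12 and 7 met no other mark. H3K27ac met 1, at 37649062 to 37649653, with a score of 94.4 for the acetylation peak and 497 for H3K4me3. The longest stretch of the interval without H3K4me3, 123 kb, followed this row.

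The fifth row, from 37802369 to 38002501, combined the strongest and the weakest H3K4me3 peaks. It opened with a peak at 37802369 to 37804650 (2282 bp) whose score of 3100 is the level at which many scores stop. H3K27ac covered it with a peak of 2634 bp that also scored 3100, and 2 H3K4me1 peaks with scores of 109 and 98.05 met it. A site at 37815163 followed, whose main peak (655 bp, score 855) met H3K4me1 alone. Then came 15 solitary H3K4me3 peaks between 37816304 and 37927507, the first of them still part of that site. Their median score was 70.1 (50.5 to 269), and 11 of the 15 scored below 100. The 17 peaks of the first row, by comparison, had a median score of 271. Among the 15 solitary peaks of the fifth row lay an H3K27ac peak, 37921352 to 37921938 (score 52.3), that touched none of them. Sites in the fifth row lay as close as 1.4 kb to each other.

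**Figure D4:**
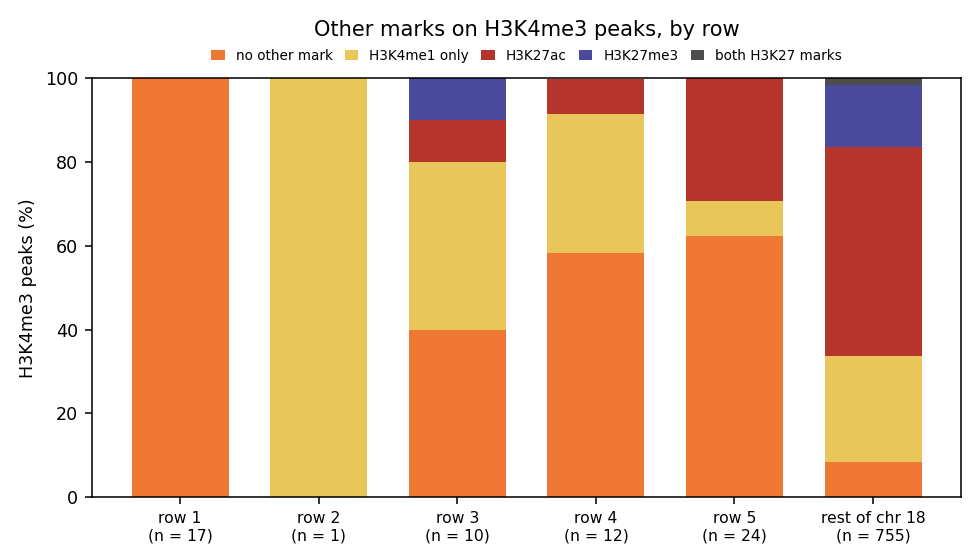
Share of H3K4me3 peaks (%) by the other marks they meet, in each of the 5 rows of the protocadherin interval and on the rest of chromosome 18; n is the number of H3K4me3 peaks, and the class named H3K27ac or H3K27me3 may also hold H3K4me1. All 17 peaks of the first row meet no other mark, against 8.34% on the rest of the chromosome, and the single peak of the second row meets H3K4me1.

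The terminal 98 kb of the interval, from 37932000 on, at the Pcdhg end, looked unlike the rest of the arrays. In it began 16 of the 21 H3K27ac peaks, 10 of the 25 H3K4me1 peaks, 6 of the 64 H3K4me3 peaks and no H3K27me3 peak. By length, including the end of an H3K27ac peak that began before it, it held 28.8 of 35.4 kb covered by H3K27ac (81.3%) and 69.7% of the H3K4me1 length, but 22.4% of the H3K4me3 length. Each of its 6 H3K4me3 peaks met both H3K4me1 and H3K27ac. In the 882 kb before it, H3K27ac met 3 of 58 H3K4me3 peaks and 43 of the 58 (74.1%) met no other mark. Which part of this stretch belongs to the end of the Pcdhg cluster and which to Diaph1 cannot be told here.

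**Figure D5:**
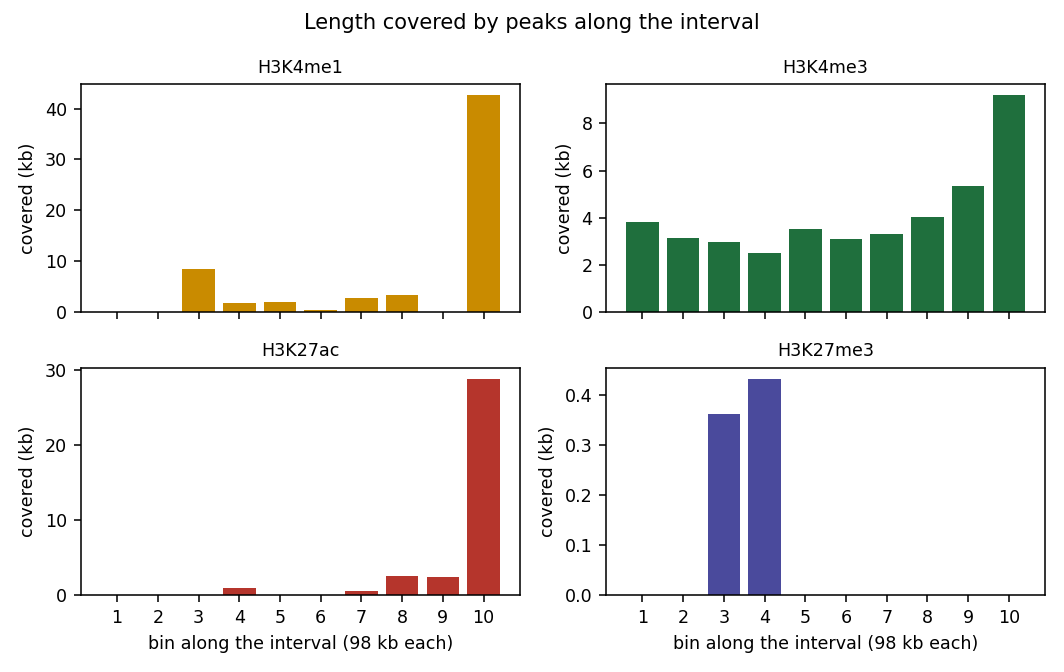
Length covered by peaks of each mark (kb) in 10 consecutive bins of the protocadherin interval, each 98 kb long; the vertical scales differ between marks. H3K4me3 is spread over all bins at 2.52 to 9.19 kb, whereas H3K27ac and H3K4me1 reach 28.8 and 42.6 kb in the last.

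Of the H3K4me3 peaks in these 98 kb, 37965991 to 37969107 was the widest of the interval (3117 bp, score 3100), directly after one of 560 bp (score 407). The next, 37973751 to 37976125, spanned 2375 bp and scored 2551. Weaker peaks followed at 37981466 to 37982316 (score 230) and 37984704 to 37985624 (score 479). The last, 38001140 to 38002501, was 1362 bp wide and scored 549. Both of the first pair met the H3K27ac peak at 37965459 to 37967105 (score 571).

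The widest H3K27ac peaks of these 98 kb did not coincide with the strongest H3K4me3 peaks. The peak at 37981124 to 37987973 was 6850 bp wide with a score of 3100, and 65 of 33600 H3K27ac peaks were wider. It spanned the 2 H3K4me3 peaks with scores of 230 and 479. The peak at 37992809 to 37997005 (4197 bp, score 2807) met H3K4me1 but no H3K4me3, and that at 37999468 to 38003296 (3829 bp, score 2487) met both. Scores between 375 and 642 were found at 37972876 to 37974911 (642), 37988785 to 37989930 (626) and 37978239 to 37979751 (375), and a solitary peak across the start of these 98 kb, 37930147 to 37932307, scored 397. Joined within 12.5 kb, the 16 peaks from 37965459 to 38020665 formed a cluster that covered 28.5 kb. Its covered length was second among the 559 H3K27ac clusters of chromosome 18, whose median was 1.38 kb, and rank 16 among 16953 in the genome.

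H3K4me1 formed broad peaks under this cluster. At 37972424 to 37988213 a peak of 15790 bp (score 364) contained 3 of the H3K4me3 and 4 of the H3K27ac peaks, and 17 of 76772 H3K4me1 peaks were wider. The next in width were 37991509 to 37997908 (6400 bp, score 673), 37965254 to 37970682 (5429 bp, score 408), 38008722 to 38012703 (3982 bp, score 441) and 38001157 to 38004508 (3352 bp, score 487). In all, 6 H3K4me1 peaks met H3K27ac and no H3K4me3, and all 6 lay in the terminal 98 kb. Those not named above were 37988617 to 37990008 (score 196) and 37990416 to 37991476 (score 59.4). Further on lay 37998618 to 38001080 (score 468) and 38019458 to 38021062 (score 112). H3K27ac met 11 of the 25 H3K4me1 peaks in the interval (44%, 26.7 to 62.9), against 29.1% on the rest of the chromosome, a value inside that interval. Conversely, 17 of the 21 H3K27ac peaks (81.0%, 60 to 92.3) met H3K4me1, against 74.9%, and 8 (38.1%, 20.8 to 59.1) met H3K4me3, against 37.5%. No other mark met 2 of the 21 (9.52%, 2.65 to 28.9), against 20.3%, and H3K27me3 met 0 of 21 (upper bound 15.5%), against 0.292%. These overlaps of H3K27ac were thus not distinguishable from those on the rest of the chromosome at this number of peaks.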

How the data were processed

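The values are 4 deposited lists of peaks on mm9, with a score for each peak that the authors gave and whose definition is not given in the sources used here; the control, the threshold and the treatment of duplicate reads are not given either. Bowtie 0.12.9, MACS 1.4 and Cufflinks are named, without role or order, in the submitters' processing notes. Start positions, counted from 0 in the deposited files, were raised by 1. Peaks overlapped when they shared at least 1 bp. The rest of chromosome 18 ran from the first to the last peak of any list (86.8 Mb without the interval). Ratios of density carry bounds from the Wilson interval of the interval's share of peaks. Computation used Python 3.11.15, numpy 2.4.6, pandas 2.3.3, scipy 1.17.1 and matplotlib 3.10.9, and the overlap functions were tested on simulated data.

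Peaks were named by rule: H3K27ac peaks, the 10 of highest score; both H3K27me3 peaks; H3K4me3 peaks, the 5 widest, the 5 of highest score and those that meet H3K27ac or H3K27me3; H3K4me1 peaks, the 5 widest and those that meet an H3K27 mark without H3K4me3. Other peaks are given to describe rows. The interval, lists and settings were chosen with earlier results of these data known, and the rows, joined sites and terminal 98 kb after the peak positions were seen. With 1 library per mark no test was run. A peak list from many cells does not tell in how many cells or on which allele a mark lay. No promoter sequence is printed.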

Additional observations from a re-analysis of the deposited data

How the results depend on the processing

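No paired analysis was possible because each mark has 1 library. Of 50 values recomputed under other settings for 10 results, 36 stayed within the 95% interval of the value reported. The settings that leave out the terminal 98 kb, and all those for the share of H3K4me3 peaks with no other mark, were added after the data were examined. With peaks below their list's median score left out, which kept 10 H3K4me3 peaks in the interval, the H3K4me3 density ratio was 2.32, the median width 1262 bp and the median spacing 52.1 kb. The shares of H3K4me3 peaks were then 50% with H3K4me1, 40% with H3K27ac, 0% with H3K27me3 (0 of 10, upper bound 27.8%) and 30% with no other mark. The first 3 could not be told from the rest of the chromosome at this setting (65.2%, 53.4% and 17.8%). For the share with no other mark, 3 of 10 peaks, the lower bound of 10.8% lay barely above the 10.7% of the rest. As bounds may be too narrow, that margin carries no weight. Against the other autosomes the H3K4me3 ratio was 5.58. By covered length it was 3.95, and the H3K27ac ratio 2.80. Joining peaks within 1 kb gave a median H3K4me3 width of 600 bp. Widths and spacings on the rest of the chromosome were not recomputed with the score limit or after joining. Without the terminal 98 kb, the H3K27ac ratio passed from above 1 to 0.479 with bounds that include 1 (0.204 to 1.12), the H3K4me1 ratio was 0.635, and H3K27ac met 5.17% of H3K4me3 peaks; here the lost peaks themselves are the cause. The cause was not tested for any other setting. Unknown read depth limits statements on peaks that are missing from a list.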

Other observations

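Unbroken runs of H3K4me3 peaks that meet no other mark were listed over the genome, with neighbours at most 50 kb apart, after the data were examined. Of 2324 runs, the 29 peaks on chromosome 11 from 3000191 to 3100227 formed the longest. The protocadherin interval held the second and the third, with 17 peaks in the first row (37089599 to 37180864) and 15 in the fifth (37816304 to 37927507). The fourth had 10 peaks, on chromosome 7 from 38960784 to 38986429. On the rest of chromosome 18 no run was longer than 2 peaks.

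Over the other autosomes, 28 of 2361 windows of the same length held more H3K4me3 peaks than the 64 of the protocadherin interval, the densest 120 on chromosome 10. None of the 2361 held as many as 43 H3K4me3 peaks without another mark. The largest number was 33, on chromosome 11, followed by 16, and the median was 1.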
